A study of Mus musculus with 2 samples.

Results

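Accessible regions at microRNA (miRNA) genes were described in mouse regulatory T cells, a CD4 lineage that depends on Foxp3 and holds immune responses in check. Members were regions of replicate 1 that overlapped a region of replicate 2 by at least 1 bp and lay within 2 kb of a gene of type miRNA in the GENCODE annotation of mm10. There were 563 such regions among 64172 shared regions, and 300 of them lay within 1 kb of a transcript start of some protein-coding gene, called a coding start here, while 263 lay away from one. The rule uses position and presence in both lists, and no level. The study measured open chromatin by ATAC-seq, in which a transposase cuts accessible DNA and tags it for sequencing. It held 1 group of 2 libraries, numbered as biological replicates 1 and 2, of primary regulatory T cells from C57BL/6NJ mice of unknown age, with no second condition. The donor identifier of both libraries is the same, so it is not known whether they came from separate animals, and differences between them may be technical. A linked protocol on CD4 T cell differentiation was not read. Names of entries in the lists mention 72 hours, ASTARR and insert, and no source used here says what these words stand for, so it is not known whether the regions come from plain ATAC-seq libraries.

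Most miRNAs are cut from long primary transcripts, in which the short hairpin is released by Drosha and then trimmed by Dicer to a mature strand that guides Argonaute to messenger RNAs. Pairing is led by the seed, bases 2 to 8 of the mature strand, so miRNAs that share a seed share most of their predicted targets. A hairpin can lie in an intron or exon of a host gene and be made from the host's promoter, which may be far away, or it can have a primary transcript of its own. An accessible region near a hairpin can therefore be a start of the primary transcript, a start of another gene or an element within the gene body, and accessibility does not measure the miRNA. Regulatory T cells that lack Dicer or Drosha lose their suppressive function, which makes this class of genes of interest in these cells.

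The mature strands of the miRNAs named most often below are shown with their seeds in capitals, so that shared seeds can be seen across the loci. They come from RefSeq on GRCm38.p6, the build of mm10, in which all 43 genes of the T cell, miR-17 family and let-7 lists that had a region found a mature sequence. Those genes give 81 distinct mature sequences with 60 distinct seeds. The strands of genes linked to T cell function come first.
miR-155-5p: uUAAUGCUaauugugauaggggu
miR-146b-5p: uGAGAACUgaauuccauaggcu
miR-142a-5p: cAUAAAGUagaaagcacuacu
miR-142a-3p: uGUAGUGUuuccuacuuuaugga
miR-21a-5p: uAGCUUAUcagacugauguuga
miR-210-3p: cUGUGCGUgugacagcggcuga
miR-10a-5p: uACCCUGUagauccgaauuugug
miR-23a-3p: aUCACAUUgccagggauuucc
miR-27a-3p: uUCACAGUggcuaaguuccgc
miR-24-3p: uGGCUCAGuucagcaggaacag
miR-342-3p: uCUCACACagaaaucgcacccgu
miR-148a-3p: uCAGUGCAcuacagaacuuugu
Pairs of T cell list miRNAs that share a seed follow. Each strand shown has a gene copy with an accessible region, while the other copies of miR-29b and miR-26a, Mir29b-1 and Mir26a-1, had none within 2 kb.
miR-29b-3p: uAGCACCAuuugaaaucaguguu
miR-29c-3p: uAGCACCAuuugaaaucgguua
miR-132-3p: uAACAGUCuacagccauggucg
miR-212-3p: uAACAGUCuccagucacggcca
miR-181c-5p: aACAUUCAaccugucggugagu
miR-181d-5p: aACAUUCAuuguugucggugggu
miR-26a-5p: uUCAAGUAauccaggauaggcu
miR-26b-5p: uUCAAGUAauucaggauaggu
The clusters on chromosomes 14 and X repeat the same seeds, AAAGUGC in miR-17, miR-20a, miR-20b and miR-106a, AAGGUGC in miR-18a and miR-18b, GUGCAAA in miR-19a and miR-19b, and AUUGCAC in miR-92a and miR-363.
miR-17-5p: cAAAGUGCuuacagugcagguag
miR-20a-5p: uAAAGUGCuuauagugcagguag
miR-106a-5p: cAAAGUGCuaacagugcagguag
miR-20b-5p: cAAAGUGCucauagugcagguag
miR-18a-5p: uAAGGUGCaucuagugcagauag
miR-18b-5p: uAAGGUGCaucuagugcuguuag
miR-19a-3p: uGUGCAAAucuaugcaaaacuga
miR-19b-3p: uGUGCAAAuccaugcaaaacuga
miR-92a-3p: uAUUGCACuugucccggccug
miR-363-3p: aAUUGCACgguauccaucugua

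Regions at miRNA genes lay at coding starts more often than accessible regions as a whole. Of the 599 regions of replicate 1 within 2 kb of a miRNA gene, 563 were overlapped by replicate 2 (94.0%), and the share over all 68832 regions was 93.2%. The 300 regions at a coding start made up 53.3% of the members, against 25.5% of all shared regions, and the 263 away from one made up 46.7%. With replicate 2 as the base there were 568 regions, of which 47.5% lay away from coding starts. Regions found in a single list near a miRNA gene numbered 36 in replicate 1 and 75 in replicate 2, and they ranked low, at a median percentile of 6.63 and 7.79 of their own lists by −log10 q. The deposited −log10 q is the authors' measure of how surely a region was called, so a percentile near 100 means the most surely called regions of a list.

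Each class of members was described beside shared regions of the same class. At coding starts the members had a median −log10 q of 104 in replicate 1 and 152 in replicate 2, and all shared regions at coding starts had 85.4 and 127. The deposited signal went the other way at coding starts, with a median percentile of 68.4 and 72.3 for the members and 73.8 and 76.4 for all shared regions. Both sets lay well above the middle of their lists in either measure. The members at coding starts were also wider, with a median of 1318 bp in replicate 1 against 1103 bp. Away from coding starts the members had a median −log10 q of 21.3 in replicate 1 and 31.9 in replicate 2, and all shared regions away had 19.1 and 29.0. These are percentiles of 49.2 and 55.3 for the members and 46.2 and 52.8 for all shared regions. The members away from coding starts were thus near the middle of the lists, like other regions of that class. Their summits held more GC, with a median of 50.2% in 201 bp against 47.8%, and 7 of the 263 were at least 2000 bp wide (2.66%, against 0.473% of all shared regions away). Distances run from region edges, so a wider region meets the rule more easily, and width is not independent of the rule in either class.

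The replicates ranked the members alike, as they did shared regions as a whole. The −log10 q was higher in replicate 2 at 530 of the 563 members (94.1%, against 89.5% of all shared regions). The percentile within each list differed between replicates by a median of 3.25 points, against 4.58 points over all shared regions. The difference passed 20 points at 26 of the 563 members, against 3570 of the 64172 shared regions. Away from coding starts it did so at 18 of the 263 members, against 3108 of 47799 shared regions. Summits in the replicates were a median of 18 bp apart. At 16 members (2.84%, against 2.24% of all shared regions) the matched region of replicate 2 was also matched by another region of replicate 1. The values of replicate 2 there belong to a wider region. Both replicates placed 121 members (21.5%) at or above the 90th percentile, made up of 113 at coding starts and 8 away from them. Those are 37.7% and 3.04% of their classes, against 30.9% and 3.38% of all shared regions of the same classes.

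**Figure D1:**
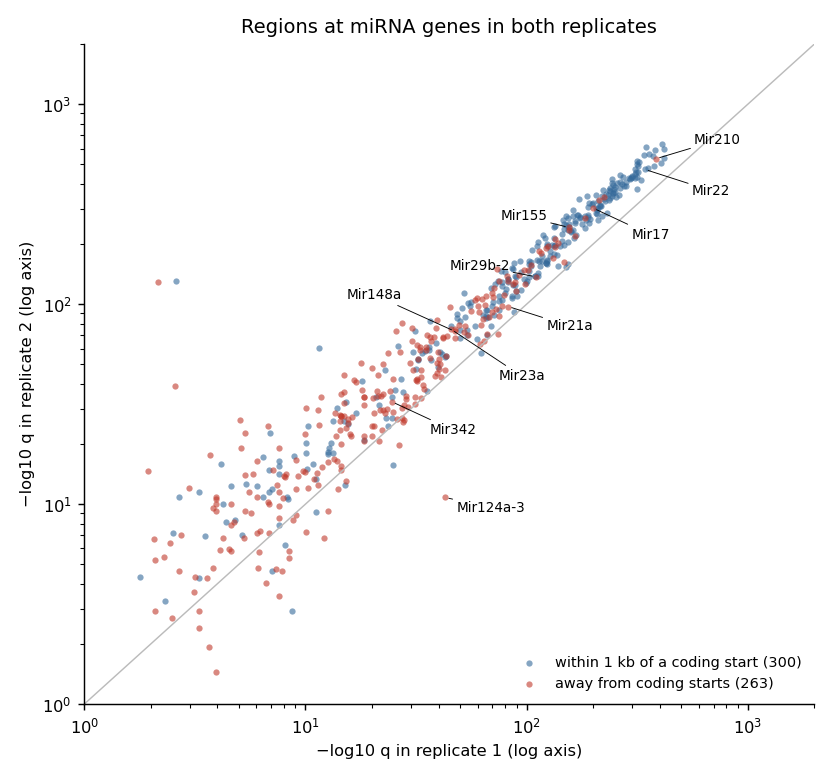
Deposited −log10 q of each of the 563 regions at miRNA genes in replicate 1 (horizontal, log axis) and replicate 2 (vertical, log axis), with regions away from coding starts in red, regions at coding starts in blue, and the line of equal values in grey. Most points lie above the line, the regions of Mir210, Mir17 and Mir155 sit among the blue points at the upper end, and Mir124a-3 falls below the line with 42.9 in replicate 1 and 10.8 in replicate 2.

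Seen from the genes, 548 of the 2202 miRNA genes on the main chromosomes (24.9%) had a shared region within 2 kb. Among the 1174 genes with a Mir symbol 346 had one (29.5%), and among the 1028 with other symbols, nearly all predicted hairpins with Gm numbers, 202 had one (19.6%). Short RNA genes of other types gave 22.6% for genes of type misc_RNA, 19.5% for small nucleolar RNAs and 16.3% for small nuclear RNAs, and protein-coding genes, which are far longer, gave 71.7%. Of the miRNA genes, 274 had a region away from coding starts and another 274 had regions only at coding starts. A region touched the hairpin itself at 219 genes (9.95%). The share varied with the place of the hairpin: it was 28.7% in protein-coding hosts, 26.8% in noncoding hosts, 32.2% on the strand opposite a gene and 16.4% between genes.

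Genes linked to T cell function were gathered in a list of 55 miRNA genes, and 25 of them had a region (45.5%), beside the 29.5% of all Mir symbols. Clustered genes share regions, so the loci are the safer unit: the 55 genes fall into 36 loci when genes within 10 kb of each other are joined, and 18 loci had a region, whereas 34.3% of loci with a Mir symbol did. The 25 genes were served by 21 regions, 13 away from coding starts and 8 at them. By −log10 q these 21 regions had a median percentile of 69.4 in replicate 1 and 74.6 in replicate 2, close to the 67.2 and 72.9 of all members. By signal they ranked lower, at 35.7 and 34.4, and all members had 58.5 and 62.2. The list's share changed with the distance and with the measure used to shorten the lists: it was 23.6% within 1 kb of the gene, where all Mir symbols had 19.8%, and 80.0% within 5 kb, where they had 46.2%. With each list limited to its 50000 regions of highest signal it was 21.8%, level with the 22.1% of all Mir symbols, and with the 50000 of highest −log10 q it was 36.4%, where they had 23.9%.

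**Figure D2:**
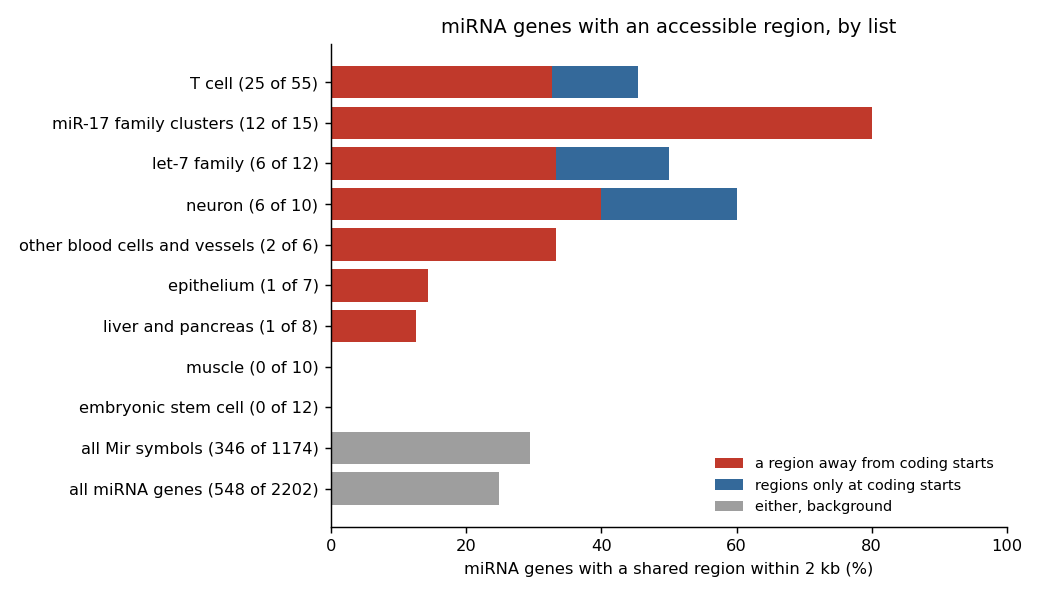
Share of the miRNA genes in each list (down the page, with counts) that had a shared region within 2 kb, in percent, divided into genes with a region away from coding starts (red) and genes with regions only at coding starts (blue), with all Mir symbols and all miRNA genes in grey. The T cell list reaches 45.5%, the neuron list 60.0% and the miR-17 family clusters 80.0%, against 29.5% of all Mir symbols. The muscle and embryonic stem cell lists are at 0. Bars count genes, and genes of a cluster can share a region.

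By −log10 q, the locus of Mir155 had one of the most surely called regions away from coding starts. miR-155 is a Foxp3-bound gene in the mouse and keeps regulatory T cells competitive by limiting Socs1, an inhibitor of cytokine signalling. Its region at chr16:84712618-84713819 had a −log10 q of 155 in replicate 1 and 242 in replicate 2, at percentiles of 91.2 and 93.1, while by signal it lay near the middle of the lists, at 52.7 and 56.1. The summit was at the same base in both replicates, 0.82 kb before the 5′ end of the hairpin, and the region lay within 1 kb of a start of the host transcript Mir155hg. A second region, 3.92 kb downstream, had 23.3 and 49.6, and 3 weaker regions lay between 6.07 and 9.55 kb upstream, with values from 2.57 to 11.1 in replicate 1 and from 4.30 to 9.09 in replicate 2.

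The region of Mir210 was the most surely called of all members away from coding starts. miR-210 is the classical miRNA induced by low oxygen through Hif1a, and in mouse T cells it restrains T helper 17 differentiation. The region at chr7:141221394-141222474 had a −log10 q of 385 in replicate 1 and 534 in replicate 2 and signals of 15.4 and 15.7. It ranked at the 99.6th and 99.5th percentiles by −log10 q in replicates 1 and 2, with its summit 0.488 kb before the hairpin in both and its edge over the hairpin.

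Several other miRNA genes studied in T cells had a region close upstream or over the hairpin. Mir29b-2 and Mir29c, whose products limit interferon-gamma and the T helper 1 factors T-bet and Eomes, shared a region at chr1:195035426-195036295 with a −log10 q of 110 in replicate 1 and 137 in replicate 2. That region lay inside the noncoding host A330023F24Rik. No region lay within 1 kb of the starts of host transcripts that span the hairpins. Mir23a, Mir27a and Mir24-2, made from a common transcript that tempers effector T cell responses, had a region at chr8:84207671-84208356 with 45.7 and 74.7 and another past the cluster with 25.0 and 42.4. Further upstream of that cluster, 4 more regions lay within 10 kb, and the strongest had 157 and 243. Mir148a, induced in repeatedly activated T helper 1 cells, had 47.4 and 73.1, and Mir132 and Mir212, which share a seed and respond to cell activity, had a region over both hairpins with 39.0 and 76.1.

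The sequences round 4 of these summits are shown because they differ widely in base composition, from the AT-rich window at Mir155 to the GC-rich window upstream of Mir17. Each is 201 bp of GRCm38 centred on the replicate 1 summit, and capitals mark matches to the motifs searched, RUNX as TGTGGT or its reverse complement and STAT as TTCNNNGAA.
Mir155 (chr16:84713220-84713420, plus strand): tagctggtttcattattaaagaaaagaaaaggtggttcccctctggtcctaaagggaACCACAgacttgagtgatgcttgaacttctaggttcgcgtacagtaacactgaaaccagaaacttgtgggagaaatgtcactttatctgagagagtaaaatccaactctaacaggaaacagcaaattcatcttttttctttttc
Mir210 (chr7:141221881-141222081, plus strand): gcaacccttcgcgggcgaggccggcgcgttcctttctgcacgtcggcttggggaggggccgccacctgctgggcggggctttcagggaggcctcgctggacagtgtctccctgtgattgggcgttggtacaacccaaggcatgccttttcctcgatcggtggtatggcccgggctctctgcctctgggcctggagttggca
Mir29c (chr1:195035804-195036004, plus strand): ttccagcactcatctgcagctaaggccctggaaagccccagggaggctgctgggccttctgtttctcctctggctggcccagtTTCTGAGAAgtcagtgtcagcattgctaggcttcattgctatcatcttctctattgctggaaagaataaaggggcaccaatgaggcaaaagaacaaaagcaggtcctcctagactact
Mir17 (chr14:115040515-115040715, plus strand): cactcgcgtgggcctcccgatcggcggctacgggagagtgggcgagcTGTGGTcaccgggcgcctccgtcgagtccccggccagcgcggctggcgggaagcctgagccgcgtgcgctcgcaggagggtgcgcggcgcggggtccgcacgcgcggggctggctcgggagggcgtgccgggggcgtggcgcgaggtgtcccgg
The GC content of these windows was 38.8% at Mir155, 66.7% at Mir210, 50.7% at Mir29c and 79.6% at Mir17. The windows of Mir155 and Mir17 each held 1 RUNX match, that of Mir29c held 1 STAT match, and that of Mir210 held none of the 6 motifs.

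By −log10 q, Mir142 and Mir21a had strong regions that did not lie at their hairpins. miR-142 is made in nearly all blood cells and few others, and T cells need it for proliferation. Its nearest region, at chr11:87754784-87755568 within 1 kb of the start of Mir142hg, had a −log10 q of only 12.1 in replicate 1 and 6.74 in replicate 2, and its signal percentiles of 0.0458 and 0.0032 were near the bottom of both lists. Regions with a higher −log10 q lay on either side: 224 and 336 at a start of Tspoap1 downstream, and 153 and 243 at 7.24 kb upstream. Their signals were 4.33 and 4.19 at Tspoap1 and 4.74 and 4.72 upstream, below the list medians of 6.57 and 6.06. miR-21 rises on lymphocyte activation, and its gene lies at the end of Vmp1. Its region within 2 kb, at chr11:86580529-86582881, had 82.6 and 97.3 and lay downstream, with its summit 2.76 kb from the 5′ end of the hairpin. Upstream of Mir21a, a region at a coding start 2.86 kb away had 164 and 252, and another at 9.07 kb had 223 and 312. By signal the downstream region had 4.86 and 4.30, below the list medians. The upstream regions were above the medians, with 6.92 and 6.87 at 2.86 kb and 11.5 and 11.0 at 9.07 kb.

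Other T cell list genes had regions at protein-coding starts, which cannot be assigned to the miRNA or to the coding gene from position. Mir22, hosted by Mir22hg and overlapping Tlcd2, lay beside a region with 342 in replicate 1 and 472 in replicate 2. Mir191 and Mir425, which are broadly expressed, shared a region at Ndufaf3 with 165 and 260 and another at Dalrd3 with 103 and 136. Mir26b, in an intron of Ctdsp1, had 115 and 155. These were among the more surely called regions of the lists. Mir10a, a miRNA reported in regulatory T cells under TGF-beta and retinoic acid, had a region at a start of Hoxb4 with 82.1 and 133. Mir146b, whose seed is that of miR-146a and targets Traf6 and Irak1 in inflammatory signalling, had a weak region at Mfsd13a with 5.41 and 12.6. Mir99b, in Spaca6, had 11.2 and 9.16.

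The remaining T cell list genes with a region away from coding starts had a −log10 q near or below the middle of the lists. Mir342, in an intron of Evl, had a −log10 q of 24.6 in replicate 1 and 32.5 in replicate 2. Mir125b-2, in the long host Mir99ahg, had 15.5 and 26.5. Mir26a-2, in Ctdsp2, had 9.05 and 8.80 at a region 1.99 kb away, which was at the edge of the rule. Mir181c and Mir181d, members of the family that tunes T cell receptor sensitivity, lie in an intron of Nanos3 and had 5.11 and 19.1. No region lay at the starts of Nanos3 transcripts that span these hairpins. By −log10 q Mir342 ranked highest of these, at percentiles of 53.1 and 55.7, well under Mir155 and Mir210. By signal it was at percentiles of 68.8 and 69.9, above Mir155 at 52.7 and 56.1 and under Mir210 at 96.2 and 96.9.

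**Figure D3:**
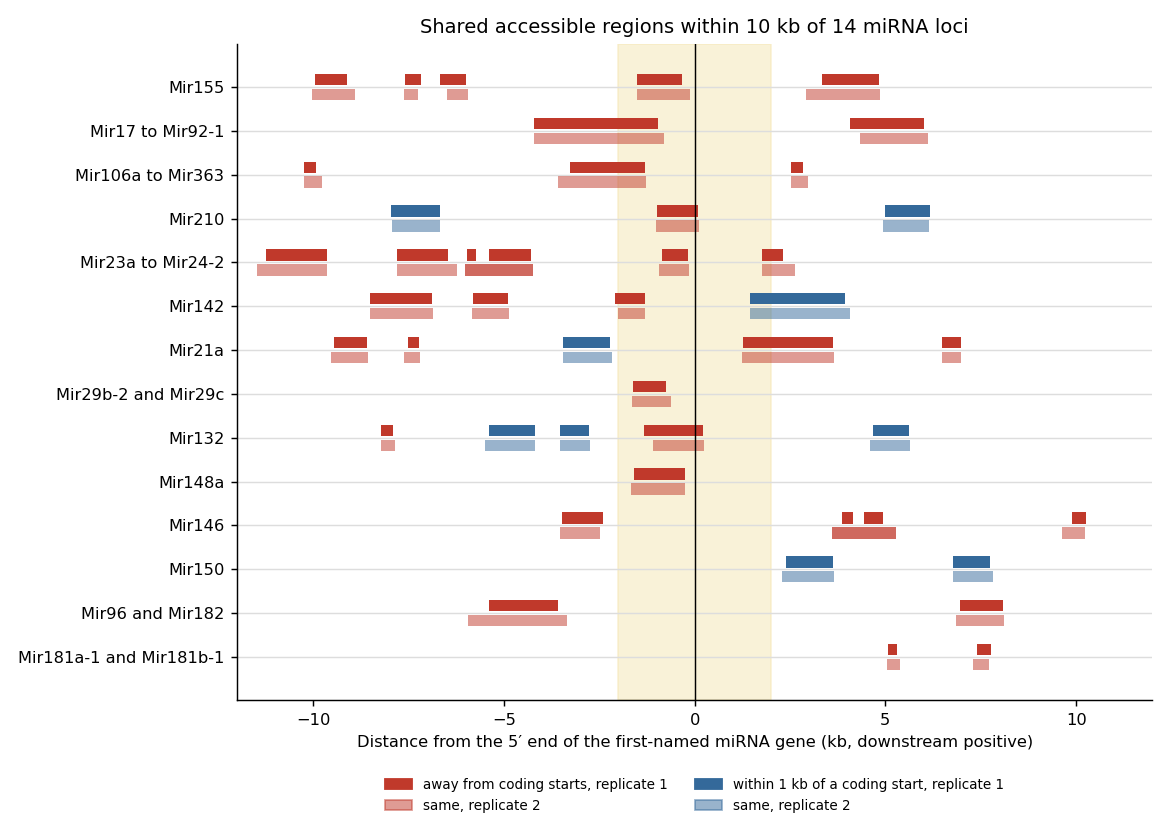
Shared accessible regions within 10 kb of 14 loci of the T cell and miR-17 lists, drawn to scale from the 5′ end of the first-named miRNA gene (horizontal axis, kb, downstream positive), with the replicate 1 extent above that of replicate 2, red for regions away from coding starts and blue for regions at them. The shaded band marks 2 kb to either side of that end, and the loci of Mir146, Mir150, Mir96 and Mir181a-1 have regions only outside it.

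The other 30 genes of the T cell list had no shared region within 2 kb, and for many a region or an open host start lay further off. Of these 30, 19 had a region within 5 kb and 23 within 10 kb, and all 17 that lie in a host gene had a region at a start of that host. The 17 genes are not separate hosts, since Mir23b, Mir27b and Mir24-1 share a host, as do Mir15a and Mir16-1. Over all miRNA genes without a region within 2 kb, 35.4% had one within 10 kb. Among those of them that lie in a host gene, 74.2% had an open host start. Mir146, which encodes miR-146a and supports control of inflammation by regulatory T cells, had its nearest region 2.41 kb upstream, with 43.0 in replicate 1 and 58.7 in replicate 2. Mir150, abundant in resting lymphocytes and aimed at Myb, had one 2.33 kb downstream at a coding start with 112 and 204. Mir182, Mir96 and Mir183, a cluster that supports T cell expansion after interleukin-2, lay between 3.31 and 3.59 kb from a region, and the one upstream of Mir96 had 128 and 204. These nearby regions were thus stronger than several that the 2 kb rule takes.

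Nearest regions at the remaining loci ranged from near and strong to weak or far away. Mir30d was 2.19 kb from a region with 123 in replicate 1 and 153 in replicate 2, which was also the nearest to Mir30b at 5.97 kb. Mir181a-1 and Mir181b-1, the members of the miR-181 family best known in thymocytes, had nothing nearer than 4.80 kb, where the region had 3.95 and 4.62. Mir31, a repressor of Foxp3 in human cells, was 27.2 kb from a region. Mir15a and Mir16-1, which limit Bcl2 and lie in Dleu2, and Mir15b and Mir16-2, which lie in Smc4, had open host starts and gaps of 4.97, 5.10, 2.67 and 2.51 kb. Mir29a, Mir29b-1, Mir23b, Mir27b, Mir24-1, Mir125a, Mir34a, Mir326 and Mir26a-1 had gaps from 2.30 to 5.29 kb. Mir181a-2, Mir181b-2, Mir221, Mir222, Mir128-1, Mir125b-1 and Mir128-2 had gaps from 9.91 to 55.7 kb. In a bulk sample, fewer cells with an open site and less opening per cell cannot be told apart, so a weak or missing region was not read as a closed gene.

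Of the 15 genes of the miR-17 family clusters, which promote growth and survival of lymphocytes by limiting the death factor Bim, 12 had a region. They lie in 2 of the 3 loci and rest on 3 regions, none at a coding start. Mir17, Mir18, Mir19a, Mir20a, Mir19b-1 and Mir92-1 lay within 2 kb of 1 region, chr14:115039468-115042713, with its nearer edge less than 1 kb before the start of Mir17hg. It had a −log10 q of 200 in replicate 1 and 302 in replicate 2 and was 3246 bp wide, and CpG pairs in the 201 bp at its summit were 1.11 times as frequent as its bases alone would give. The related cluster on chromosome X, Mir106a, Mir18b, Mir20b, Mir19b-2, Mir92-2 and Mir363, had a region upstream within 1 kb of a start of the noncoding gene Kis2 with 49.2 and 79.0, and a weaker one downstream with 11.5 and 24.8. The third cluster, Mir106b, Mir93 and Mir25, lies in the DNA replication gene Mcm7. It had no region within 2 kb, with gaps from 3.76 to 4.18 kb, but the start of Mcm7 was open with 190 and 294.

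The let-7 family, which restrains growth genes and is blocked by Lin28 in early cells, had a region at 6 of its 12 genes. Mirlet7i had the strongest, which covered its hairpin with a −log10 q of 91.9 in replicate 1 and 140 in replicate 2 and had 81.6% GC at its summit. Mirlet7g, in an intron of Wdr82, lay beside a region at a coding start with 58.5 and 77.9. Mirlet7b had 24.0 and 36.9 downstream of its hairpin, and Mirlet7e shared the Spaca6 region of Mir99b. Mirlet7a-1 and Mirlet7f-1 shared a region of 2.09 and 2.92, close to the lowest value in the lists. All 6 genes without a region lie in a host gene with an open start, against 74.2% of all hosted miRNA genes without a region. These are counts of genes, and Mirlet7f-2 and Mir98 share the host Huwe1.

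miRNA genes known from other tissues had regions at 10 of 53 genes (18.9%), and at 9 of 32 loci (28.1%). Among all Mir symbols the shares were 29.5% of genes and 34.3% of loci, and among all miRNA genes 27.2% of loci. By locus the lists of other tissues were thus close to miRNA genes as a whole. None of the 10 muscle genes, at 6 loci, and none of the 12 embryonic stem cell genes, at 2 loci, had one. Of the neuronal genes, 6 of 10 did: Mir9-1, Mir9-2, Mir9-3, Mir124a-3, Mir219a-1 and Mir338. The regions of Mir219a-1 and Mir338 lay at starts of Ring1 and Aatk, with 48.2 and 89.3 at Ring1 and 65.7 and 85.2 at Aatk. The 4 others lay away from coding starts. Mir9-1 had a region over its hairpin with a −log10 q of 22.0 in replicate 1 and 34.7 in replicate 2, Mir9-2 had one with 18.4 and 20.6, and Mir9-3 had 7.38 and 4.76. miR-9 and miR-124 drive neuronal identity, and the region of Mir124a-3 differed between replicates, with 42.9 and 10.8 and summits 1356 bp apart.

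The other lists of other tissues gave few regions. Mir203, which promotes differentiation of skin epithelium, had a region over its hairpin with 33.2 in replicate 1 and 34.0 in replicate 2. Mir375, a miRNA of pancreatic islets, had 6.07 and 10.8, and Mir143 and Mir145a, known from smooth muscle of vessels, shared a region with 19.9 and 24.5. The neuronal share was thus above that of the T cell list, 60.0% against 45.5%, on 10 genes. Markers of the cells were read the same way, as a shared region within 1 kb of a start. All 5 regulatory T cell markers (Foxp3, Il2ra, Ctla4, Ikzf2 and Tnfrsf18) and all 4 T cell markers had one. Of other cell types, 1 of 3 B cell markers (Pax5) did, and none of 3 myeloid and 3 hepatocyte markers. Whether other cells add to the regions at miRNA genes was not tested.

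The 10 members away from coding starts that ranked highest by the mean percentile of both replicates included the regions of Mir210, Mir17 and Mir155. Among the others, the region of Gm27754, a predicted hairpin in an intron of L3mbtl3, had 224 in replicate 1 and 342 in replicate 2. The region over Gm47299 and Gm47305 had 213 and 331. Mir8096 had 183 and 271 over its hairpin, and Gm25472, further along chromosome 1, had 134 and 211. Gm25193, in Atp6v1e1, had 156 and 235, Mir3089 had 165 and 219, and Gm23813 had 138 and 202. Of all 10 regions, 5 lay at predicted hairpins with Gm symbols, for which no function is given in the annotation used. Among the 263 members away from coding starts, the nearest miRNA gene had a Mir symbol at 162.

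At most 3 shared regions lay within 2 kb of a miRNA gene, a number reached by 11 genes. Gm22175, Gm25747 and both copies of Gm24022 are overlapping or adjacent predicted hairpins that shared the same 3 regions on chromosome 12, between Ighm and Ighj4 of the immunoglobulin heavy chain locus. Those regions had a −log10 q of 5.07, 28.0 and 23.6 in replicate 1 and 26.2, 26.2 and 56.8 in replicate 2, where the first pair were matched to the same region. Mir28a, in an intron of Lpp, had 9.95, 11.4 and 10.1 in replicate 1 and 22.4, 29.5 and 7.29 in replicate 2. Mir129-2 and Mir129b, opposite strands of the same hairpin, had 8.47, 8.16 and 2.48 in replicate 1 and 5.35, 14.1 and 2.70 in replicate 2. The regions of Gm23222 at Lin54, Snord43 at Rpl3, and part of those of Gm28033 at Ppp1r18 and Mir6935 at Actg1 lay at coding starts.

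Most hosted miRNA genes had a shared region at a host start, also where none lay within 2 kb of the hairpin. Of 1133 miRNA genes inside a host on the same strand, 910 had a shared region within 1 kb of a host start whose transcript spans the hairpin (80.3%). The share was 86.4% for coding hosts and 44.5% for noncoding hosts. The share of open starts over all genes is not given here, so these values have no background beside them. It was 95.7% for hosted miRNA genes that had a region within 2 kb and 74.2% for those that had none, and the higher share includes hosts whose own start lies within 2 kb of the hairpin. Hairpins in an exon of the host had a region within 2 kb in 149 of 319 cases (46.7%), and those in an intron in 173 of 814 (21.3%).

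Summits lay on both sides of the hairpins. Of the 563 members, 326 had their summit upstream of the 5′ end of the nearest miRNA gene (57.9%), with 59.0% at coding starts and 56.7% away from them. The median distance was 0.780 kb at coding starts and 1.10 kb away. Regions covered a whole hairpin at 47.0% of members at coding starts and at 16.3% of those away, and the wider regions at coding starts reach over more DNA. Among the 263 away from coding starts, 23 lay within 1 kb of the start of a noncoding gene (8.75%, against 3.22% of all shared regions away). By midpoint, 131 of the same 263 lay in an intron of a coding gene (49.8%, against 48.9% of all shared regions away). An exon held 23 (8.75%, against 4.71%), and 109 lay outside coding genes (41.4%, against 46.4%).

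**Figure D4:**
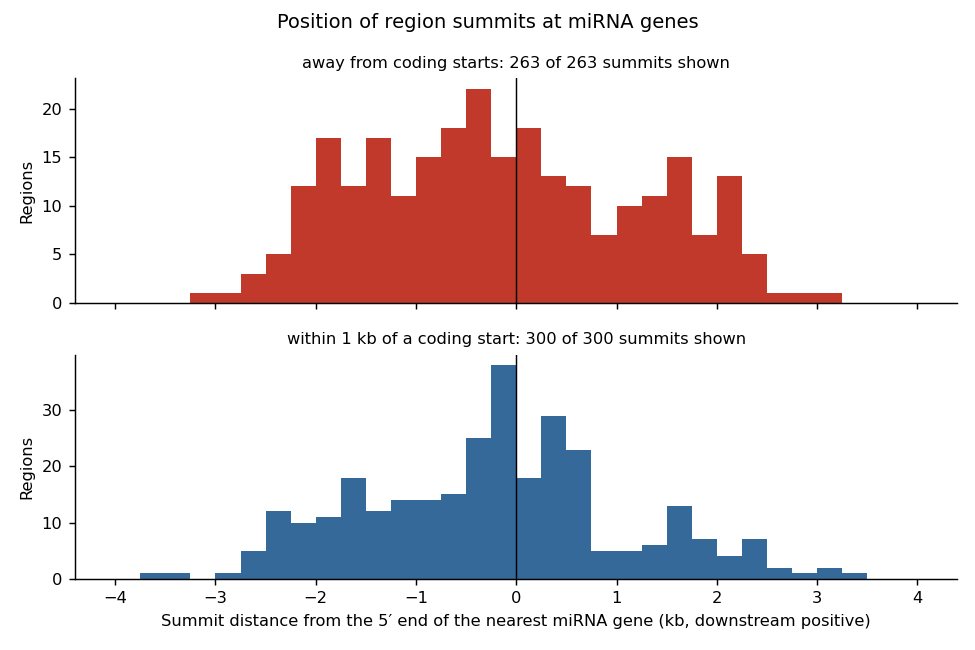
Number of members by the distance of their replicate 1 summit from the 5′ end of the nearest miRNA gene (horizontal axis, kb, downstream positive, bins of 0.25 kb), for the 263 regions away from coding starts (red, above) and the 300 at coding starts (blue, below). Summits fall on both sides of the line at 0, and the regions at coding starts gather closer to it, with a median distance of 0.780 kb against 1.10 kb.

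Within 100 bp of the replicate 1 summit, both strands were searched for the letters of 6 motifs: AP-1 as TGANTCA, ETS as CCGGAAG, RUNX as TGTGGT, NF-kB as GGGANTTCC, STAT as TTCNNNGAA and SP/KLF as GGGGCGGGG. None of these strings contains another. A match describes the letters and not a bound site. Away from coding starts, AP-1 letters stood in 30 of the 263 members (11.4%), against 22.6% of all shared regions away. STAT letters stood in 11.0% against 16.0%, and RUNX letters in 19.4% against 23.2%. AP-1, STAT and RUNX are families of factors that act in activated and regulatory T cells. SP/KLF letters, common in CpG-rich promoters, stood in 3.80% (10 members) against 1.27%, ETS letters in 3.04% against 1.88%, and NF-kB letters in 4.18% against 2.37%.

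Most members away from coding starts lay near no start at all, so their AP-1 share was bound to lie near that of the class. The share over all shared regions near no start is not given here. Of the 240 members away from coding starts that lay at no noncoding start either, 28 held AP-1 letters (11.7%), and of the 23 at a noncoding start 2 did. SP/KLF letters stood in 3.33% of the 240 and in 8.70% of the 23. At coding starts the AP-1 share was 7.67% for the members, against 6.66% of all shared regions, RUNX was 13.0% against 10.4%, and STAT letters stood in 21 of the 300 members, against 5.98%. NF-kB was 2.33% against 1.86%, ETS was 11.0% against 11.6%, and SP/KLF was 13.0% against 13.7%. With 1 group and 2 libraries the design allows no test of these shares, and they describe the lists alone.

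**Figure D5:**
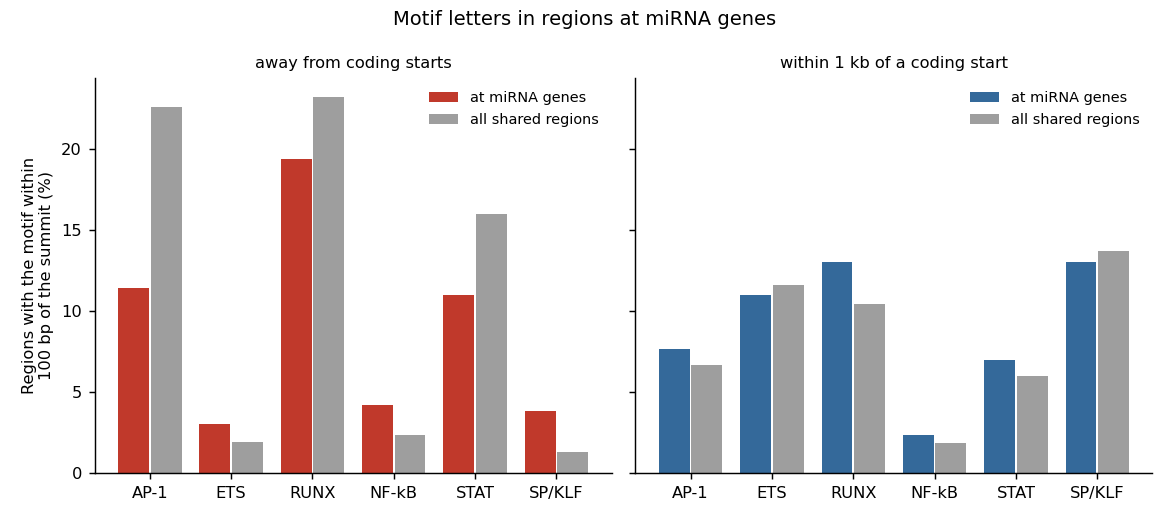
Share of regions (vertical axis, percent) with the letters of each of 6 motifs within 100 bp of the summit, for regions at miRNA genes (red or blue) and for all shared regions of the same class (grey), away from coding starts on the left and at them on the right. Away from coding starts AP-1 letters stand in 11.4% of regions at miRNA genes and in 22.6% of all shared regions.

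The edge of the rule divides loci that differ little in distance. Just inside it, Mir26a-2 lay 1.99 kb from its region, and Gm22639 and Gm44463 lay at the same rounded distance. Just outside, Gm25948 lay at 2.01 kb, Mir339 at 2.03 kb and Mir32 at 2.05 kb. Of the 1654 miRNA genes without a region within 2 kb, 585 (35.4%) had one within 10 kb.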

How the data were processed

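The labels describe ATAC-seq of mouse regulatory T cells, 1 group with 2 libraries. Each library has a list of regions in narrowPeak form on mm10, made from its own alignments and not from pooled reads, per the file headers and deposited notes. Which aligner and peak caller were used, and whether cut sites were shifted for the transposase, was not stated in any source read. For each region the authors deposited a signal, whose scale is not stated, a −log10 p-value and a −log10 q-value with a lowest value of 1.00. The score that the authors deposited follows the −log10 q, rounded and limited at a ceiling, and was not used. The lists held 68903 and 78262 regions, 71 and 84 of them outside chromosomes 1 to 19, X and Y and left out. Without counts in the lists, the depth is unknown.

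Distances were taken from region edges to genes of type miRNA and to starts of all transcripts of protein-coding genes in GENCODE release M21. Values of replicate 2 come from the region with the largest overlap. Percentiles rank each value within its own list. Window sequence came from GRCm38 with samtools 1.23.1, and tables were made with Python 3.11.15, pandas 2.3.3 and NumPy 2.4.6. The overlap and distance steps were tested on simulated data.

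No test was possible with 1 group. Named were all T cell and miR-17 list genes, let-7 and other-tissue genes with a region, the 10 highest-ranking members away from coding starts, and the genes with the most regions, of which 11 tied. The members, lists and rules were chosen with earlier results of these data known. Alternatives in overlap, distance, list length, start sites, base replicate and symbols were tried. The erythroid marker list is not reported here.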

Additional observations from a re-analysis of the deposited data

How the results depend on the processing

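No paired analysis was possible because there is 1 group and no comparison between groups. The number of regions at miRNA genes (563) was 373 within 1 kb of the gene, 1083 within 5 kb and 352 for Mir symbols alone, and stayed within 1.5 times 563 under the other 11 settings. The number away from coding starts (263) was 161 with the 50000 regions of highest signal, 156 within 1 kb, 587 within 5 kb and 163 for Mir symbols alone. The number of miRNA genes with a region (548) was 863 within 5 kb and 346 for Mir symbols. The T cell list count (25) was 12 with the 50000 regions of highest signal, 13 within 1 kb and 44 within 5 kb. The share away from coding starts (46.7%, with an SD of 0.581 points between the base replicates) was 45.3% with a reciprocal overlap of 50%, 44.1% with a −log10 q of 5 or more, 40.3% and 40.1% with 50000 regions by −log10 q and by signal, 41.8% and 54.2% within 1 and 5 kb of the gene, 51.0% and 41.4% with 0.5 and 2 kb to a coding start, 53.1% with starts of coding transcripts alone, 47.5% with replicate 2 as the base and 50.6% with distances from the summit. Leaving out a library gave 48.9% without replicate 2 and 50.4% without replicate 1. The median percentile of regions away from coding starts (49.2) ranged from 44.4 to 61.6. Settings of distance and symbols alter how many genes or bases are searched, and the cause of the changes was not tested. Neither depth nor signal over background is known, so a region that is absent from the lists was not read as closed.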
